A study of Mus musculus with 9 samples.

Results

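The 37 genes described here encode the degradative machinery of the lysosome: its soluble hydrolases, its membrane proteins, the subunits of its proton pump, and the transcription factors TFEB and TFE3. They were chosen by name, with earlier results of these data known, and all 37 were found among the 21989 genes of the deposited table. Their counts beside those of all genes are therefore descriptive. Expression was measured by RNA sequencing in the mouse aortic arch, where plaque is known to form early, in 9 libraries forming 3 groups of 3. The control group was C57BL/6J and ate standard diet. The model group was ApoE-/-, without the apolipoprotein that clears remnant lipoproteins, and ate high-fat diet for 15 weeks. The high dose group had the genotype and diet of the model group and was also given ZCL at 5.12 g/kg/day, by gavage over 15 weeks (the series title names the plant Ziziphora clinopodioides Lam.). Genotype and diet thus differed together between control and model, and no vehicle gavage or animal age is given in the sources used here. Whether the 3 libraries of a group stem from different mice is not stated, and p-values therefore measure only a spread between samples that may be technical. The other ApoE-/- arms of the study were not analysed here.

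The lysosome is the acid compartment in which cells break down material taken up by endocytosis, phagocytosis and autophagy. A vacuolar proton pump, made of a membrane sector called V0 and a cytosolic sector called V1 that splits ATP, keeps its interior acid, and each hydrolase cuts one kind of bond in glycolipids, glycosaminoglycans, proteins or cholesteryl esters. TFEB and TFE3 are related factors that bind E-box sequences in the promoters of many lysosomal genes. In atherosclerotic plaque, macrophages are known for taking up lipoproteins and degrading them in this compartment.

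The sequence these factors recognise has CACGTG at its centre, and the promoters that hold it are shown because they differ in number and placement of that core. RefSeq promoters on GRCm38.p6, each from 250 bases before to 50 bases after a transcript start, were found for 32 of the 37 genes. CACGTG, which reads the same on both strands, was present in 8 of the 32 (25.0%), against 8.09% of the 27025 genes with a promoter entry. The longer TCACGTGA, which contains CACGTG, was present in Mcoln1, Gla, Atp6v0d1 and Atp6v1a, 4 of the 32 (12.5%), and in 1.12% of all genes. Stretches are printed 5′ to 3′ on the strand of the gene, with each CACGTG in capitals.
Lamp1, chr8:13159088-13159163, plus strand: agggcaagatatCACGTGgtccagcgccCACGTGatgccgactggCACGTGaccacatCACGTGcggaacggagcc
Mcoln1, chr8:3500436-3500491, plus strand: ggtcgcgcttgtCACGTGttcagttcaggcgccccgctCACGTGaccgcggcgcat
Gla, chrX:134601182-134601244, minus strand: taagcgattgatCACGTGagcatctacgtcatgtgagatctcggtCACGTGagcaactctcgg
Glb1, chr9:114401018-114401047, plus strand: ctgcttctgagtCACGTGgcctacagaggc
Naglu, chr11:101070009-101070038, plus strand: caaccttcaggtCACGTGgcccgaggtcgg
Sgsh, chr11:119355522-119355551, minus strand: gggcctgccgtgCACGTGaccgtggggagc
Atp6v1a, chr16:44139373-44139402, minus strand: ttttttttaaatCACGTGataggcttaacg
Atp6v0d1, chr8:105566050-105566079, minus strand: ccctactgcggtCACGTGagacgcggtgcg
Lamp1 holds 4 copies within 76 bases, Mcoln1 and Gla hold 2 each, and the other 5 genes hold 1. The match in Atp6v0d1 begins 3 bases before the transcript start, while the matches in Gla begin 227 and 194 bases before it. These matches describe the sequence and do not show binding.

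Values are FPKM, which divide a gene's fragments by its length and by the library's total, so levels can be set side by side between genes. The steps between low values put the depth of control 2, the shallowest library, at 56.3% of that of model 1, the deepest. Apoe stood at 339.9 to 1006 FPKM in control, 18.9 to 33.4 in model and 25.4 to 93.7 in high dose. Libraries of a group differed in tissue content: heart muscle markers summed to 24.9 to 84 FPKM in control 3, the 3 model libraries and high dose 1, and to 7631 or more in the other 4. Smooth muscle and endothelial markers, which define the vessel wall, summed to 459 to 4469 FPKM and to 183 to 421 FPKM. Markers of catecholamine-making cells summed to 1639 FPKM in high dose 1 and to 325 or less elsewhere, and the share of haemoglobin genes ran from 0.569% in high dose 2 to 14.3% in model 1. FPKM is a share of the library, and in whole tissue fewer cells of a type and less RNA per cell cannot be told apart.

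Of the 37 genes, 35 passed the filter on low values, 1 FPKM in 3 or more libraries. Psap, the precursor of the saposins that present glycolipids to their hydrolases, was the most abundant, with a mean of 935 FPKM over the 9 libraries. It was followed by the membrane glycoprotein gene Lamp1 at 316, the tetraspanin gene Cd63 at 227 and the progranulin gene Grn at 144 FPKM. At the low end of the tested genes stood Sgsh, which removes sulfate from heparan sulfate, at 4.97 FPKM, the keratan sulfate sulfatase gene Galns at 5.70 and the alpha-galactosidase gene Gla at 5.73. Mcoln1 varied least, by 1.58 times between its lowest and highest library, and Gla most, by 16.5 times. Model 1 held the highest value of 20 of the 35 genes, high dose 1 of 6 and control 3 of 5.

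Neu1, the sialidase, and Ctns, the cystine exporter of the lysosome, were the members not tested. Neu1 was listed at 0.0150 to 0.578 FPKM and Ctns at 0.0706 to 0.337 FPKM. Their neighbours were listed low as well. Of the 20 nearest genes of the table around Neu1 on chromosome 17, 34801348 to 35062095 in GRCm38, 16 stayed under 1 FPKM in all 9 libraries, among them Lsm2 and Nelfe, which encode general RNA processing and transcription factors. Around Ctns on chromosome 11, 72777232 to 73457508, this held for 15 of 20 genes, 5 of them olfactory receptor genes at 0. Over all 20193 genes that could be placed, 30.4% stayed under 1 FPKM. Other genes of the Ctns window were not low, with Cyb5d2, Tax1bp3 and Aspa at up to 7.81, 5.54 and 5.55 FPKM. Whether the low listing of Neu1 and Ctns reflects a lack of their transcripts was not tested.

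**Figure D1:**
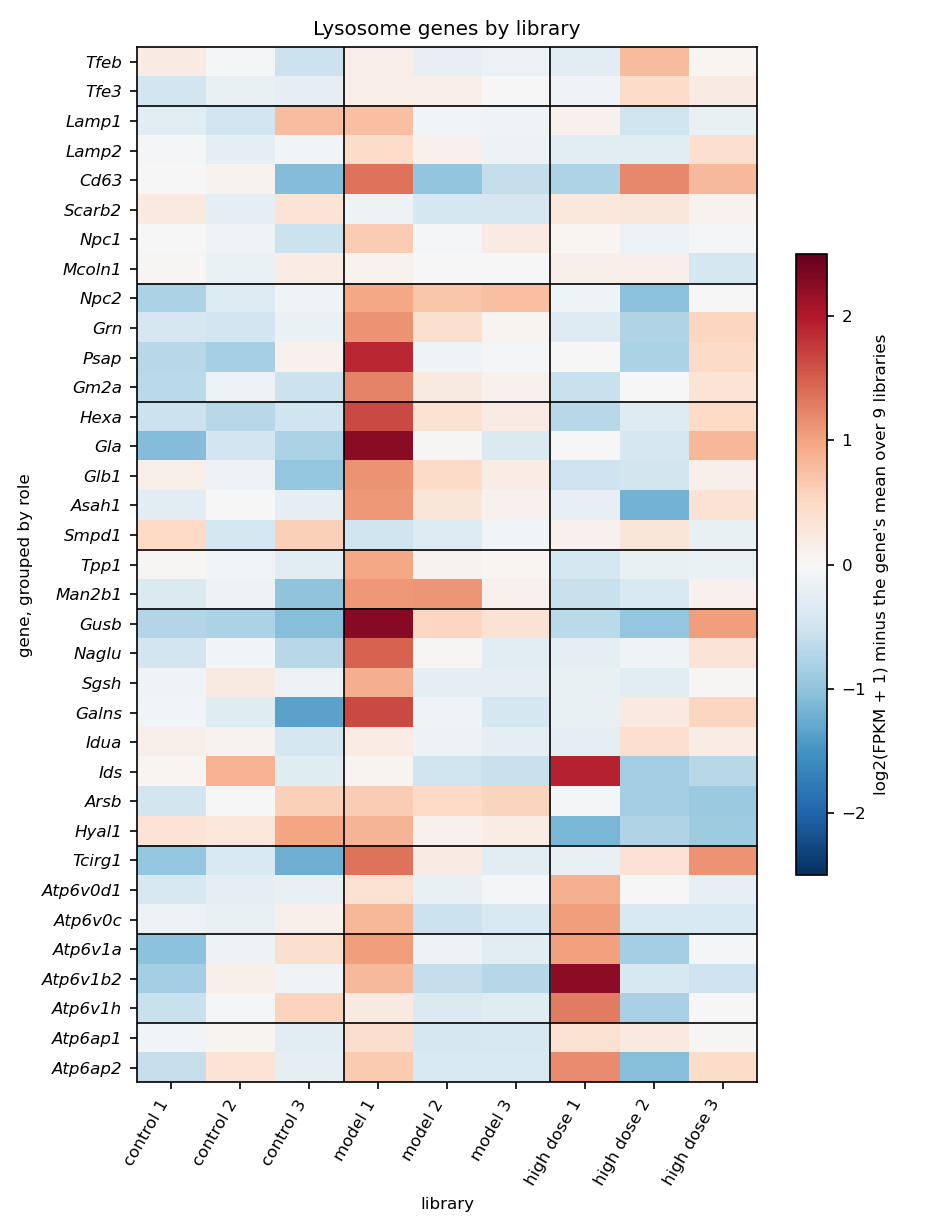
Expression of the 35 tested lysosome genes in the 9 libraries. Colour is log2(FPKM + 1) minus the gene's mean over the libraries, rows are grouped by role and columns by group. Model 1 is the highest library for 20 genes, and high dose 1 is the highest for 5 of the 8 proton pump genes at the bottom.

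The comparison of model with control addressed the joint effect of genotype and diet. Most lysosome genes had a higher mean in the model group, led by soluble hydrolases, their activator proteins and 1 subunit of the proton pump. Model 1 was the highest model library for 33 of the 35 genes tested. Without it 20 of 35 were above control in the mean, with a median log2 difference of 0.16. Of the 35 genes, 29 had a log2 difference above 0, against 48.7% of the 12895 genes tested, and their median was 0.40 against -0.010 over all genes. In 12 genes the lowest model value exceeded the highest control value, while 6.91% of all genes tested were higher in this way. None lay wholly below control (0 of 35), as 9.06% of all genes did. By limma with Benjamini-Hochberg adjustment over all genes, 0 of the 35 passed at an adjusted p under 0.05, as did 0 (0%) of all 12895 genes. At an unadjusted p under 0.05, 8 of the 35 were higher and 0 lower, against 3.62% and 2.75% of all genes. With libraries weighted by their estimated precision, limma called 684 genes, of which 1 was a lysosome gene, Npc2, higher in model.

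Among the activators and lipid carriers, Npc2 (GRCm38 chromosome 12, 84754562 to 84773152) had the smallest p. Npc2, the soluble protein that takes cholesterol from lysosomal lipid and hands it to the membrane protein NPC1, stood at 52.7, 72.2 and 85.8 FPKM across control and at 180.5, 148.5 and 154.9 in model. The lowest model library was thus well above the highest control library, and the 3 model values lay close together. Its log2 difference was 1.21 ± 0.319 (SE), with a limma adjusted p of 0.688. Gm2a, the activator that lifts ganglioside GM2 out of the membrane for cleavage, stood at 19.7, 28.7 and 21.5 FPKM across control and at 76.6, 37.6 and 34.4 in model. Its groups did not overlap either, and model 1 was the highest library. The log2 difference of Gm2a was 0.98 ± 0.356 (adjusted p = 0.713). Grn averaged 104 ± 12.5 FPKM (SD, n = 3) in control and 201 ± 78.8 in model, without overlap. Psap averaged 586 ± 221 and 1451 ± 1234 FPKM, with model 1 at 2876 and the other model libraries below control 3, so that its groups overlapped.

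The hydrolases of glycolipids and of glycoproteins followed. Hexa encodes the alpha chain of beta-hexosaminidase, which cleaves GM2. It stood at 38.1, 34.2 and 39.3 FPKM across control and at 176.9, 72.5 and 64.8 in model. The control values were nearly equal, and all 3 model values exceeded them, with a log2 difference of 1.32 ± 0.426 and an adjusted p of 0.708. Glb1, the beta-galactosidase of GM1 and keratan sulfate, stood at 11.9, 9.53 and 4.98 FPKM across control and 24.4, 15.4 and 12.3 in model. Its lowest model value was just above its highest control value. Glb1 shares exon sequence with Tmppe on the same strand, so its level is uncertain. Gla, the alpha-galactosidase of globotriaosylceramide, stood at 1.42, 2.63 and 1.93 FPKM across control and at 23.4, 4.17 and 2.99 in model, so the groups were separate but model 1 carried the mean. Asah1, the acid ceramidase gene, averaged 11.5 ± 1.30 and 19.5 ± 7.73 FPKM, without overlap. Smpd1, the acid sphingomyelinase gene, differed in sign, at 47.4 ± 16.8 FPKM across control and 31.3 ± 5.00 in model, and its groups overlapped.

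Man2b1, the alpha-mannosidase of glycoprotein sugars, stood at 15.6, 18.6 and 9.73 FPKM across control and at 44.7, 45.1 and 22.1 in model. Here model 1 and 2 were equally high, and the log2 difference was 1.27 ± 0.352 (adjusted p = 0.688). Tpp1, a peptidase, averaged 37.7 ± 4.03 and 54.6 ± 21.6 FPKM, without overlap but with model 2 and 3, at 42.7 and 41.6, just above control 1 at 41.3.

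The glycosaminoglycan hydrolases were mixed. Gusb, the beta-glucuronidase that acts on most glycosaminoglycans, had the widest log2 difference of the members at 1.91 ± 0.618 (adjusted p = 0.708). It stood at 15.8, 15.1 and 12.4 FPKM across control and at 133, 38.9 and 35.1 in model, with all model libraries above all control libraries. Gusb lies on GRCm38 chromosome 5, 129989011 to 130003049. No other gene of the 8 in this role was without overlap. Naglu, which removes N-acetylglucosamine from heparan sulfate, and Galns held their highest values in model 1, at 30.5 and 17.1 FPKM. Naglu stood at 7.06, 9.74 and 5.96 FPKM across control and at 10.6 and 8.39 in model 2 and 3, and Galns at 4.46, 3.66 and 1.28 against 4.37 and 3.21. Idua, the iduronidase gene, averaged 7.80 ± 1.84 FPKM across control and 7.80 ± 1.39 in model. Ids, the iduronate sulfatase gene, averaged 24.7 ± 11.3 and 16.1 ± 4.35.

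Of the 6 membrane proteins tested 0 were without overlap, where 6.91% of all genes were higher and 9.06% lower in this way. Lamp1, a main glycoprotein of the lysosomal membrane, stood at 247, 215 and 516 FPKM across control and 505, 286 and 278 in model. Control 3 and model 1 were both high, and the log2 difference was 0.18 ± 0.408. Lamp2, its relative that also serves in the fusion with autophagosomes, stood at 50.9, 43.9 and 49.3 FPKM across control and at 71.6, 55.9 and 47.4 in model. Mcoln1, the calcium channel TRPML1, stood at 19.0, 16.4 and 21.3 against 19.9, 18.4 and 18.9 FPKM, with nearly the same mean in both groups. Npc1, the membrane cholesterol transporter, averaged 15.2 ± 2.96 and 21.6 ± 5.498 FPKM. Scarb2, the receptor that carries glucocerebrosidase to lysosomes, averaged 56.5 ± 11.2 and 40.8 ± 5.22 FPKM. Cd63 stood at 482 FPKM in model 1 and at 94.5 and 124 in the other model libraries, with control 3 at 87.3 and control 1 at 184.9, and 1 pseudogene is named after it.

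Of the proton pump, Tcirg1 stood apart. It encodes a3, 1 of the forms of the a subunit of V0, known from the acid-secreting membrane of osteoclasts, and lies on GRCm38 chromosome 19, 3896050 to 3907133. It stood at 18.2, 27.8 and 15.1 FPKM across control and at 95.9, 42.5 and 29.8 in model, without overlap, at a log2 difference of 1.29 ± 0.480 (adjusted p = 0.715). Atp6v0d1, the ubiquitous d subunit, stood at 52.8, 59.2 and 61.7 FPKM across control and at 90.8, 61.0 and 68.3 in model, where model 2 fell inside the control range. The other 6 pump genes had log2 differences of -0.13 to 0.46, and all of them overlapped. Among the transcription factors, Tfe3 stood at 11.96, 14.9 and 14.5 FPKM across control and at 19.2, 19.2 and 16.9 in model, a narrow separation with a log2 difference of 0.40 ± 0.203. Tfeb stood at 11.2, 9.22 and 6.26 against 10.9, 8.18 and 8.59 FPKM, with overlapping groups.

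Model 1 was the highest of the model libraries for 33 of the 35 genes and at least 1.5 times the next for 22. Without it the median of the 35 genes was 0.16, with 20 of 35 above 0, and the median of the hydrolases was 0.30 in place of 0.66. That of the 4 activators and lipid carriers was 0.61 in place of 1.01, and of the 8 pump genes -0.27 in place of 0.10. The 6 membrane proteins were at -0.054 in place of 0.22, with 2 of 6 above 0. The log2 difference was then 0.82 for Tcirg1, 0.62 for Gm2a, 0.87 for Hexa, 0.62 for Gla, 0.59 for Grn and 0.395 for Psap, each less than with model 1 by over 1.5 times. The 12 genes without overlap were the same 12 without model 1, namely Npc2, Grn, Gm2a, Hexa, Gla, Glb1, Asah1, Tpp1, Man2b1, Gusb, Tcirg1 and Tfe3, beside 12.8% of all genes that were then higher without overlap. A further 6, Atp6ap1, Atp6v0c, Hyal1, Ids, Scarb2 and Sgsh, were then lower without overlap, against 13.4% of all genes. The macrophage markers Adgre1, Csf1r, Fcgr1, C1qa, C1qb, C1qc, Mrc1, Cd14, Itgam, Tyrobp, Aif1 and Mertk, none of them a lysosome gene of this set, were higher in model too. Their sum was 117 to 223 FPKM across control and 521 to 1504 in model, 11 of the 12 were tested, 11 of 11 were without overlap, and Aif1, which lies in the same low-listed part of chromosome 17 as Neu1, was at most 0.113 FPKM. Of the osteoclast markers, Ocstamp, Dcstamp and Calcr stayed under 1 FPKM in every library and Mmp9 was at most 3.03. Ctsk stood at 10.9, 6.61 and 3.26 FPKM in control and at 83.5, 9.94 and 19.7 in model, with overlap and the highest value in model 1. Of 5 red cell markers 5 were higher in model, 4 of them without overlap, with sums of 7101 to 12730 FPKM in control and 17210 to 47470 in model. The 4 catecholamine cell markers were lower without overlap. Lower with overlap were 8 of 8 heart muscle markers (median -4.88) and 5 of 5 airway markers (median -2.11). Medians were 0.20 for smooth muscle, 0.135 for endothelial, 0.42 for white fat, -1.17 for brown fat and -0.10 for skeletal muscle markers. Of all genes, 6.91% were higher and 9.06% lower without overlap. The part of these cell types in the lysosome differences was not tested. On only the 5 libraries low in heart muscle markers, a choice made after seeing the data that leaves 1 control library, 24 of the 35 genes were above 0, with a median of 0.39, and the hydrolases had a median of 0.72.

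**Figure D2:**
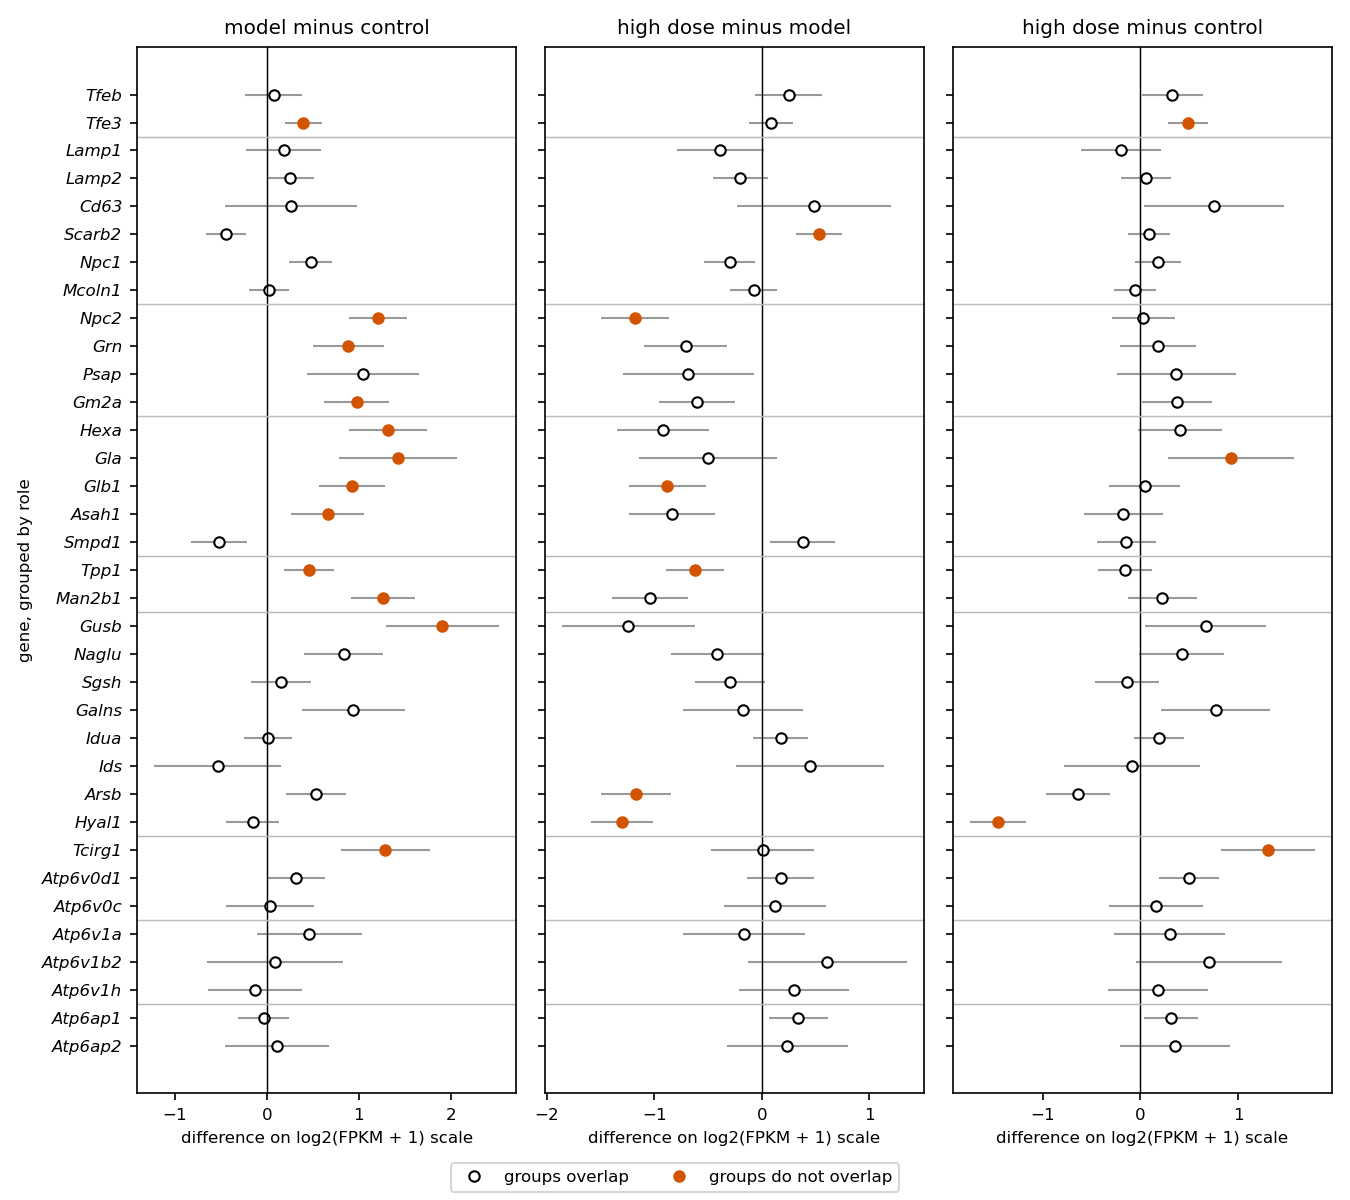
Difference of each tested lysosome gene in the 3 comparisons on the log2(FPKM + 1) scale, with the standard error of the limma fit as bars. Filled points mark genes whose groups do not overlap: 12 in model minus control, 6 in high dose minus model and 4 in high dose minus control. Of all genes tested, 6.91% were higher and 9.06% lower in this way in the first comparison. The shares were 11.7% and 10.9% in the second, and 3.66% and 5.02% in the third.

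The comparison of high dose with model addressed ZCL with genotype and diet held equal. Of the 15 hydrolases 12 were lower in high dose (median log2 difference -0.62), and of the 4 activators and lipid carriers 4 were (median -0.70). Of the 8 pump genes 7 were higher (median 0.21), but only 2 of 8 were when high dose 1 was left out (median -0.26). The hyaluronidase and sulfatase genes Hyal1 and Arsb were among the 3 genes of smallest p. Of the 35 genes 14 had a log2 difference above 0 and 21 below, against 50.1% above 0 of all genes, and the median was -0.20 against 0.00080 over all genes. High dose lay wholly below model in 5 genes and wholly above in 1, where 10.9% and 11.7% of all genes tested did so. The lower share (5 of 35) is near the background and the higher share (1 of 35) is under it. By limma 0 of the 35 passed at an adjusted p under 0.05, like 0 (0%) of all genes, and at an unadjusted p under 0.05 there were 6 lower and 1 higher, against 6.55% and 6.86% of all genes. The comparison shares its model libraries with the one before, so opposite signs in the 2 are not independent.

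Hyal1, a hyaluronidase that cuts hyaluronan into fragments for the exoglycosidases, stood at 13.0, 7.23 and 7.79 FPKM in model and at 2.504, 3.58 and 3.18 in high dose. All high dose values were less than the lowest model value, and they lay close together. The log2 difference was -1.30 ± 0.286, with a limma adjusted p of 0.183. Hyal1 (GRCm38 chromosome 9, 107576927 to 107581710) shares 2079 bases of exon sequence with Naa80 and Hyal3 on the same strand, so reads may be split among these genes. Hyal3 was at most 1.51 FPKM in any library, and Naa80, listed under its older name Nat6, overlapped between the groups at 31.7 to 39.6 FPKM in model and 18.8 to 43.7 in high dose. Arsb, which removes sulfate from dermatan and chondroitin sulfate, stood at 12.6, 11.4 and 11.9 FPKM in model and at 7.48, 3.87 and 3.59 in high dose. The model values were nearly equal, no high dose library reached them, and the log2 difference was -1.17 ± 0.325 (adjusted p = 0.254). Arsb (GRCm38 chromosome 13, 93771630 to 93943016) shares 2411 bases of exon sequence with noncoding genes on the other strand, whose reads cannot be told apart without strand.

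Npc2 stood at 85.0, 44.5 and 91.7 FPKM in high dose, below all 3 model libraries. High dose 2 also lay below the control libraries and high dose 3 above them. Its log2 difference from model was -1.18 ± 0.319 (adjusted p = 0.248). Glb1 stood at 7.20, 7.46 and 11.8 FPKM in high dose and was separate from model by a narrow margin (log2 difference -0.88 ± 0.359, adjusted p = 0.358). Tpp1 averaged 33.6 ± 3.45 FPKM in high dose, and its 3 libraries also lay below model. Man2b1 stood at 13.6, 15.6 and 22.2 FPKM, where high dose 3 just passed the lowest model library, and the log2 difference was -1.04 ± 0.352 (adjusted p = 0.309). Hexa and Gusb overlapped with model, since high dose 3 held 79.6 FPKM of Hexa and 56.9 of Gusb while high dose 1 and 2 held 34.1 and 44.1 and then 16.6 and 13.4. Scarb2 was the only gene with every high dose library above every model library, at 61.4, 62.2 and 54.1 FPKM against 46.8, 37.6 and 38.0. Its log2 difference was 0.53 ± 0.216 (adjusted p = 0.358).

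The other members with full values overlapped between these groups. Lamp1 stood at 323, 211 and 264 FPKM in high dose, Lamp2 at 42.4, 42.2 and 69.3, and Mcoln1 at 20.8, 20.9 and 13.5. Gm2a stood at 21.3, 31.6 and 40.4 FPKM and Gla at 4.08, 2.82 and 8.10, with log2 differences from model of -0.60 and -0.50, and of -0.25 and 0.31 without model 1. Tfeb stood at 7.82, 17.2 and 10.03 FPKM and Tfe3 at 15.9, 23.9 and 19.7, with high dose 2 the highest of all 9 libraries for both factors.

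Without model 1 the median of the 35 genes turned to 0.11, with 19 above 0, and that of the hydrolases was -0.32 in place of -0.62, with 8 of 15 lower. The 4 activators and lipid carriers were then at a median of -0.33, and the 8 pump genes at 0.52. Leaving out high dose 1 in place of model 1 put the pump genes at -0.26. With model 1 left out again, the overlap between groups was also counted. Genes without overlap were then 5 lower and 3 higher, against 19.8% and 17.3% of all genes. Leaving out high dose 3 gave 12 lower and 3 higher, against 18.3% and 20.2%, and limma then called 46 of all genes, of which 0 were lysosome genes. Macrophage markers summed to 181, 453 and 1241 FPKM in the lowest, middle and highest high dose library, against 521 to 1504 in model, and 11 of 11 tested had negative log2 differences. Other lists were lower too: 5 of 5 red cell markers (median -2.64, 5 without overlap), 7 of 7 smooth muscle markers (median -0.92, 1 without overlap) and 6 of 6 endothelial markers (median -0.55, 1 without overlap). So were 4 of 4 white fat markers (median -1.02). Higher were 8 of 8 heart muscle (median 4.67), 5 of 5 airway (2.75), 4 of 4 catecholamine cell (4.00) and 5 of 5 skeletal muscle markers (2.86). Of all genes, 11.7% were higher and 10.9% lower without overlap. The part of these lists in the lower hydrolase values was not tested. On the 5 libraries low in heart muscle markers, with high dose 1 alone for its group, 24 of the 35 genes were below 0 (median -0.43) and 13 of the 15 hydrolases.

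**Figure D3:**
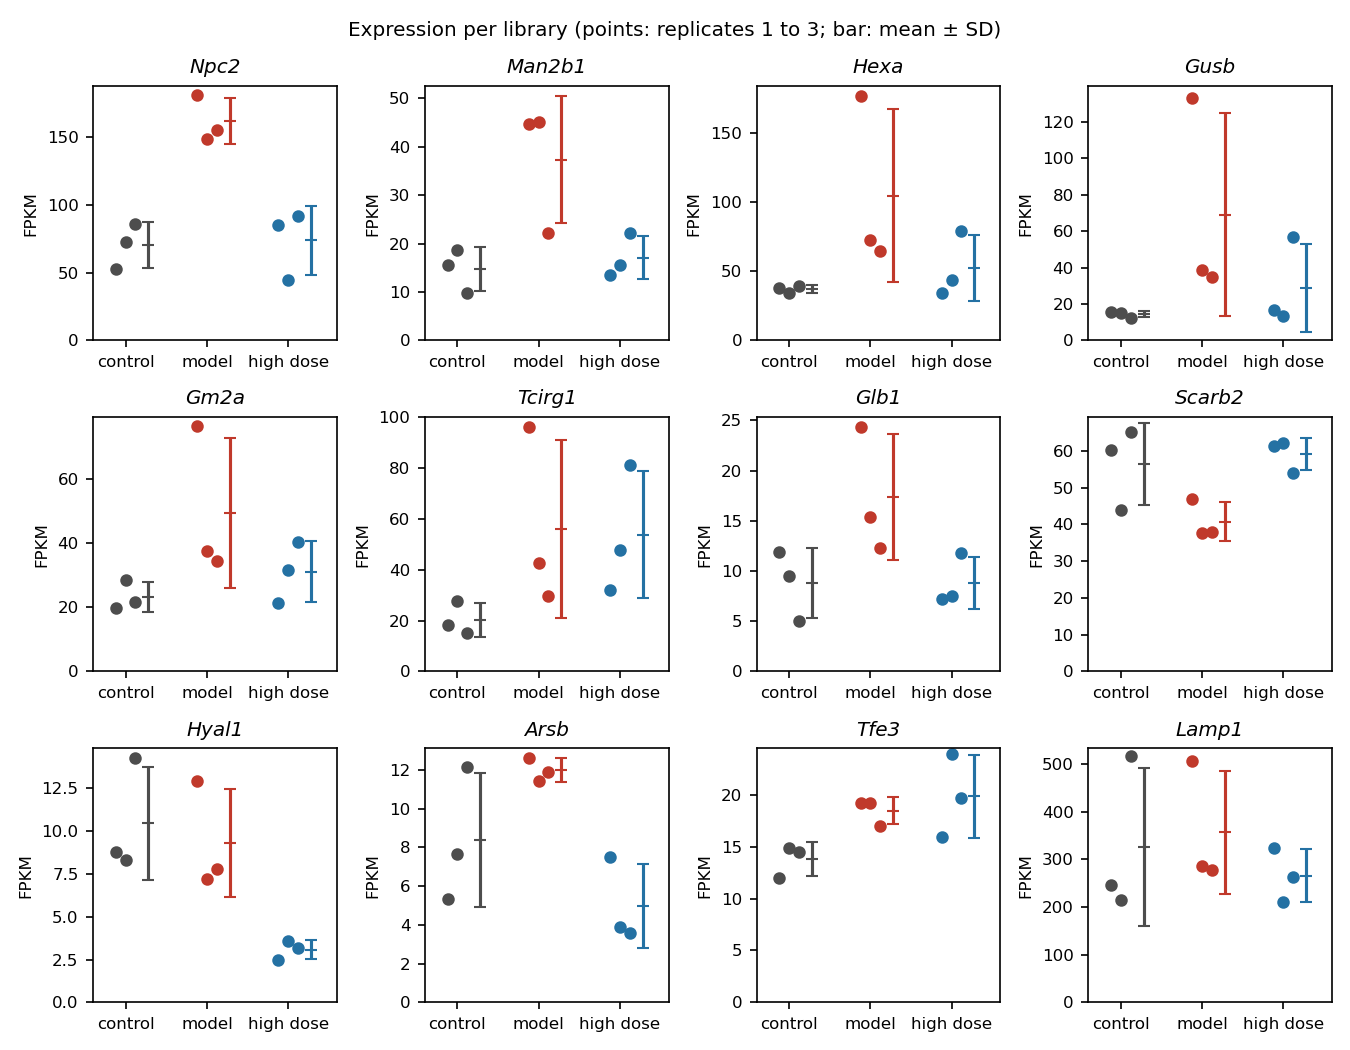
FPKM of 12 lysosome genes per library (points, replicates 1 to 3 from left to right) with the mean and SD of each group (bar). The 3 high dose libraries of Hyal1 sit between 2.504 and 3.58 FPKM, under all 6 other libraries, and those of Npc2 sit between 44.5 and 91.7, under the model libraries.

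Against control, Tcirg1, Tfe3 and Gla were higher in every high dose library than in any control library, and Hyal1 was lower. The other hydrolases went both ways, and of all 15 there were 8 above 0 and 7 below, with Galns at 0.77, Gusb at 0.67 and Arsb at -0.64. The median of the 35 genes was 0.19 against 0.0022 over all genes, with 26 above 0, against 50.2% of all genes. High dose lay wholly above control in 3 genes and wholly below in 1, where 3.66% and 5.02% of all genes did so. By limma 0 of the 35 and 0 (0%) of all genes passed, and at an unadjusted p under 0.05 there were 2 higher and 1 lower, against 2.64% and 2.80% of all genes. Hyal1 stood at 8.80, 8.30 and 14.3 FPKM in control, so its high dose libraries lay below all 6 others, and the log2 difference from control was -1.46 ± 0.286 (adjusted p = 0.569). Arsb stood at 5.34, 7.65 and 12.2 FPKM in control, which overlapped with high dose. Tcirg1 stood at 32.2, 47.7 and 81.1 FPKM in high dose, each above all control values, with a log2 difference of 1.30 ± 0.480 (adjusted p = 0.849). Its difference between high dose and model was 0.010 ± 0.480. For Tfe3 the log2 difference from control was 0.48 ± 0.203 (adjusted p = 0.888), and for Gla, which also did not overlap, 0.93 ± 0.641.

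The proton pump followed a different library from the hydrolases. High dose 1 held the highest value of 5 of the 8 pump genes and of 1 of the 15 hydrolases, and model 1 of 3 pump genes and 10 hydrolases. Atp6v1b2, a B subunit of the ATP-splitting sector, stood at 339 FPKM in high dose 1 and at 39.2 to 126 in the other 8 libraries. Atp6v1h, a regulatory V1 subunit, stood at 42.0 FPKM there and at 8.92 to 24.7 elsewhere. Atp6v0d1 stood at 131, 69.3 and 60.4 FPKM in the 3 high dose libraries, with only high dose 1 above the model range, and a log2 difference from control of 0.50 ± 0.311. Atp6v0c, whose product forms the proton-carrying ring and which has 2 annotated pseudogenes named after it, stood at 264, 97.99 and 98.1 FPKM in high dose.

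The accessory gene Atp6ap2, also known as the prorenin receptor, stood at 85.8, 17.3 and 51.7. Ids was the hydrolase that shared this pattern, at 79.1 FPKM in high dose 1 and 10.4 to 37.5 in the others. All 8 pump genes had a log2 difference above 0 between high dose and control (median 0.33), and 3 of 8 did without high dose 1 (median -0.17). Between high dose and model the count went from 7 of 8 (median 0.21) to 2 of 8 (median -0.26) without that library. In high dose 1 the markers Th, Dbh, Chga and Chgb of catecholamine-making cells summed to 1639 FPKM, against 4.56 and 43.8 in the other high dose libraries, and smooth muscle markers summed to 459 FPKM, the lowest of the 9 libraries. Whether those cells account for the pump values was not tested.

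Subunit forms gave a view that does not depend on the scaling of a library. Tcirg1 took 27.9%, 34.1% and 19.6% of the summed FPKM of the a subunit genes (Tcirg1, Atp6v0a1, Atp6v0a2 and Atp6v0a4) in control and 60.4%, 47.8% and 42.8% in model. The model shares all lay above the control shares, while those of high dose, 25.3%, 47.1% and 64.0%, spanned both groups. Atp6v0d2, a d subunit found in osteoclasts and some macrophages, took 0.231% to 1.51% of the 2 d subunit genes in control, 55.4%, 12.2% and 8.70% in model, and 1.17%, 1.77% and 27.4% in high dose. A share alone shows unequal change of the forms and not which form changed. In FPKM, Tcirg1 averaged 20.3 ± 6.64 in control and 56.1 ± 35.1 in model. Atp6v0a1 averaged 33.05 ± 4.03 and 32.2 ± 13.6, and Atp6v0a2 20.55 ± 9.02 and 16.5 ± 1.99. Atp6v0d2 averaged 0.418 ± 0.426 and 42.6 ± 60.9, and Atp6v0d1 57.9 ± 4.63 and 73.4 ± 15.5.

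**Figure D4:**
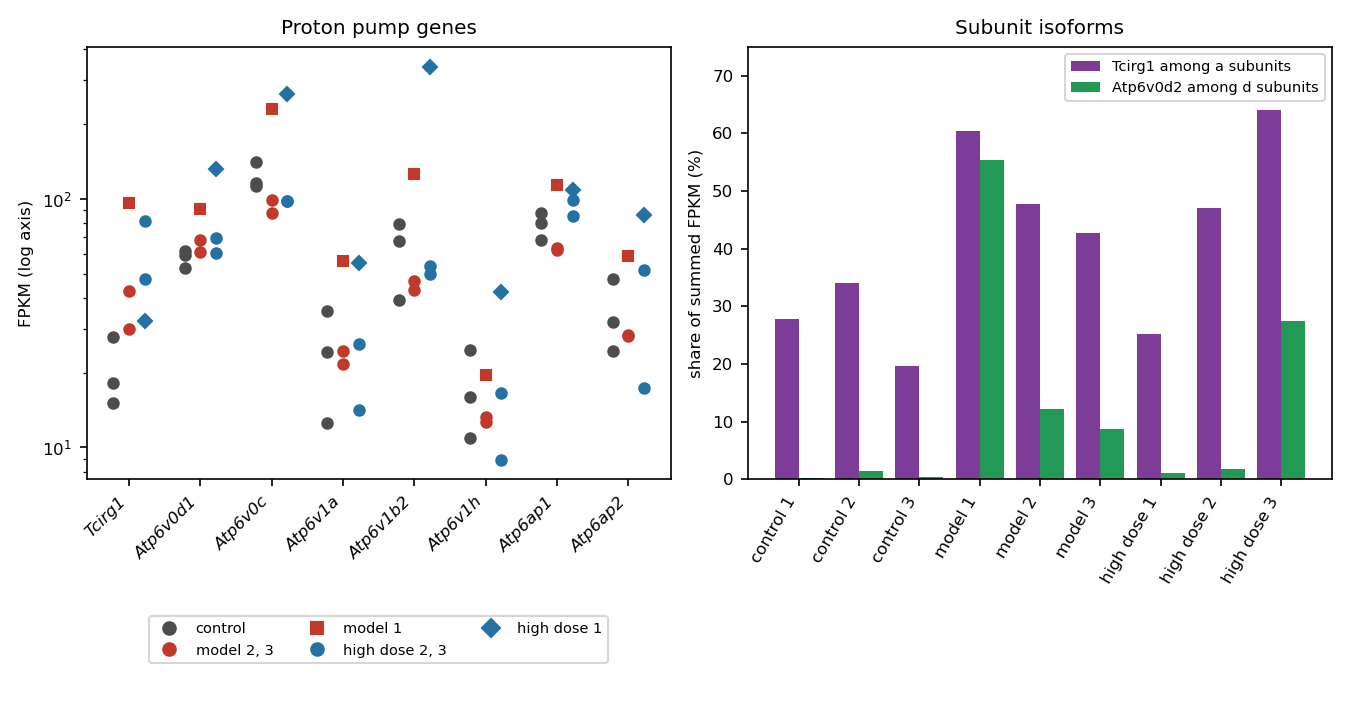
Left, FPKM of the 8 proton pump genes in every library on a log axis, with model 1 as squares and high dose 1 as diamonds. Right, share of Tcirg1 among a subunit genes and of Atp6v0d2 among d subunit genes in each library, where the Tcirg1 share is 42.8% to 60.4% in model and 19.6% to 34.1% in control.

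Other lysosomal genes outside the 37 were read from lists by function. In model against control, 17 of 19 tested further hydrolases had a log2 difference above 0 (median 0.53), 8 were higher and 1 lower without overlap, and 0 passed by limma. Over all genes, 48.7% were above 0, 6.91% higher and 9.06% lower without overlap. Model 1 was the highest library for these hydrolases except Arsa, Gaa, Aga and Hgsnat. Values without model 1 are not given for the further lists. Pla2g15, a lysosomal phospholipase, stood at 5.63, 10.1 and 13.6 FPKM across control and at 36.4, 19.7 and 19.2 in model (log2 difference 1.29 ± 0.366, adjusted p = 0.688), and Fuca1, the fucosidase gene, averaged 0.50 ± 0.192 higher on the log2 scale. Of 15 further membrane proteins tested, 11 were above 0 (median 0.39), 5 higher without overlap, led by Gpnmb and Cd68 at 5.26 ± 1.11 and 3.24 ± 0.852. In model 1, 2 and 3 Gpnmb stood at 1269, 76.6 and 114 FPKM, against 3.24 to 6.34 in control. Cd68 stood at 396, 67.5 and 64.25 FPKM there, against 8.395 to 16.25 in control. Of 11 further pump subunits 4 were above 0 (median -0.062), with Atp6v0d2 at 3.86 ± 1.16 and Atp6v0e2 at -1.51 ± 0.766. Atp6v0d2 stood at 113 FPKM in model 1 and at 8.45 and 6.51 in model 2 and 3.

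Sorting genes, which deliver hydrolases to the lysosome, had a median of 0.17 with 11 of 15 above 0 and 1 without overlap in each direction, near the 6.91% and 9.06% of all genes. Gga3, a sorting adaptor of the Golgi, and Gnptg, a subunit of the enzyme that makes the mannose phosphate tag, had log2 differences of 0.55 ± 0.243 and -0.35 ± 0.198. For TFEB relatives and the genes that control TFEB the median was 0.042 over 17 genes, 1 higher and 2 lower without overlap, with Rragd at -1.30 ± 0.406 and Fnip2 at 1.13 ± 0.470. Autophagy genes had a median of -0.039, with 10 of 20 above 0, 0 higher and 3 lower without overlap. The counts of these TFEB control and autophagy lists compare with 6.91% higher and 9.06% lower over all genes. Map1lc3a and Gabarapl1, whose products coat autophagosomes, stood at -0.83 ± 0.397 and -0.60 ± 0.368. Of these 3 lists, 0 genes passed by limma.

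In high dose against model, with the same model libraries and model 1 included, 18 of the 19 further hydrolases had a log2 difference below 0 (median -0.45). Of them 2 were lower and 1 of the 19 was higher without overlap. Over all genes 10.9% were lower and 11.7% higher without overlap, so these counts are at or under the background. The exception was Gaa, the acid glucosidase that breaks down glycogen, which stood at 31.8, 26.8 and 29.2 FPKM in model and at 81.3, 48.6 and 38.5 in high dose, without overlap (log2 difference 0.85 ± 0.349, adjusted p = 0.358). Acp5, the tartrate-resistant phosphatase gene, had the next smallest p, at -1.48 ± 0.645. Further membrane proteins had a median of -0.21, with 11 of 15 below 0 and 0 without overlap, and Cd68 and Abcb9 stood at -1.37 ± 0.852 and -0.40 ± 0.252. Further pump subunits had a median of 0.097, with 7 of 11 above 0, 1 higher and 1 lower without overlap, and Atp6v0e2 and Atp6v1g1 at 2.18 ± 0.766 and 0.53 ± 0.272.

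Sorting genes had a median of -0.17, with 11 of 15 below 0, 2 higher and 2 lower without overlap, and Nagpa and Gga3 at -0.66 ± 0.254 and -0.44 ± 0.243. The TFEB control genes had a median of 0.089, with 10 of 17 above 0 and 2 higher without overlap, and autophagy genes 0.11, with 13 of 20 above 0, 4 higher and 1 lower without overlap. All of these counts without overlap compare with 11.7% higher and 10.9% lower over all genes. Vps39, a tethering subunit that joins vesicles to lysosomes, and Map1lc3a stood at 0.48 ± 0.208 and 0.86 ± 0.397. Against control, the further hydrolases, membrane proteins, pump subunits, sorting, TFEB control and autophagy genes had medians of 0.12, 0.20, 0.099, -0.0073, 0.062 and 0.11. By limma 0 genes of these lists passed in either comparison.

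The 8 genes with CACGTG in the promoter had a median log2 difference of 0.39 between model and control, with 8 of 8 above 0 and 2 without overlap. The 22 tested genes with a promoter entry and no such match had a median of 0.33, with 17 above 0 and 9 without overlap. Over all genes 48.7% were above 0 and 6.91% higher without overlap. Between high dose and model the medians were -0.34 and -0.095. The 2 with CACGTG and without overlap between model and control were Gla and Glb1, while Lamp1 and Mcoln1, which hold 4 and 2 copies, overlapped. These values depend on model 1. Without it Lamp1, Mcoln1 and Sgsh were at -0.096, -0.012 and -0.23 between model and control, and the rest stayed above 0. Between high dose and model, Gla, Naglu and Sgsh then turned to 0.31, 0.12 and 0.092, and Atp6v1a to 0.25. Atp6v0d1 stayed above 0 there, and Lamp1, Mcoln1 and Glb1 stayed below. Medians without model 1 were not computed for these sets.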

How the data were processed

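The authors deposited 1 table of FPKM values for 21989 protein-coding genes in the 9 libraries. RNA from TRIzol extracts went into NEBNext Ultra libraries of messenger RNA, per the labels' protocols, and all 9 carry batch label 1. The submitters' processing notes name GRCm38.p5 and mm10. The aligner and counter, with their strand option, are not given in the sources used. Groups came from sample titles, and columns were matched to titles by name (AS taken as model, the only group so described). Each difference comes from limma 3.58.1 (R 4.3.3), fitted to log2(FPKM + 1) of all 9 libraries at once with a mean per group and a trended empirical Bayes spread. Genes needed 1 FPKM in at least 3 libraries, and p-values are two-sided and adjusted by Benjamini-Hochberg over the 12895 genes tested. Fold changes on this scale understate the change of low genes. The table holds no counts, so depth was read only relative to the deepest library, from the steps of values under 0.2 FPKM, and no counting interval was computed. The procedure was tested on simulated data. Alternatives changed the pseudocount (0.1), dropped the filter or asked for a mean of 5 FPKM, and tried rescaling by median ratios, quantile normalization, robust empirical Bayes, array weights, fits of 2 groups alone, a replicate block, and leaving out each library. Positions came from GENCODE M21 on GRCm38. Members with full values were Tfeb, Tfe3, Lamp1, Lamp2, Mcoln1, Tcirg1, Atp6v0d1 and the 6 of smallest p in each comparison. Of each further list the 2 of smallest p in each comparison were to be named; Lamtor3, Sort1, Gnptab, Aga, Wipi1 and Flcn are given with the additional observations. Others with values were chosen after their values were seen. A gene of the further membrane proteins and a catecholamine cell marker are not reported here and were left out of the counts and sums of their lists. The members and lists were chosen with earlier results of these data known. Exon sequence is shared with a gene on the other strand for Lamp1, Npc1, Grn, Hexa, Sgsh, Idua, Arsb and Atp6v1h. Python 3.11.15, pandas 2.3.3, numpy 2.4.6 and matplotlib 3.10.9 were used for tables and figures.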

Additional observations from a re-analysis of the deposited data

How the results depend on the processing

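Of 51 log2 differences of named lysosome genes, 921 values recomputed under the alternatives kept direction and side of the threshold, 47 changed sign and 1, Npc2 between model and control with array weights (1.33), passed it. Array weights (0.379 in control 3, 5.92 in model 2) called 684 genes between model and control and 6 between high dose and model, where the median of the lysosome genes turned to 0.048. They also gave -0.21 for Tfeb and -0.000455 for Mcoln1 between model and control, 0.21 for Gla between high dose and model and -0.14 for Glb1 between high dose and control. Fitting only the groups compared called 1 gene between high dose and model. Median-ratio rescaling and quantile normalization gave -0.00132 and -0.11 for Tcirg1 between high dose and model. Quantile normalization gave 2 lysosome genes without overlap between high dose and control, with -0.00037 for Npc2 and -0.00787 for Glb1. Of all genes, 4.13% were then higher and 5.78% lower without overlap.

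Leaving out 1 library at a time gave these ranges between model and control: Lamp1 -0.096 (without model 1; -0.060 without control 2) to 0.57, Mcoln1 -0.0733 (without control 2; -0.012 without model 1) to 0.11, Tfeb -0.13 (without control 3; -0.041 without model 1) to 0.24, and Hyal1 -0.39 to 0.072 (without control 3). Between high dose and model, genes called ranged from 0 to 46 and lysosome genes without overlap from 6 to 15 (both highest without high dose 3), and their median from -0.42 to 0.11 (without model 1). Without high dose 3, 20.2% of all genes were higher and 18.3% lower without overlap. Gla ranged from -1.0 to 0.31 (without model 1), Tcirg1 from -0.35 (without model 3; -0.33 without high dose 3, -0.0989 without model 2) to 0.48, and Atp6v0d1 from -0.16 (without high dose 1) to 0.39. Tfeb ranged from -0.045 to 0.48 and Tfe3 from -0.0514 to 0.23 (both lowest without high dose 2), and Mcoln1 from -0.17 to 0.12 (without high dose 3). Between high dose and control, lysosome genes without overlap ranged from 4 to 12 (12 without high dose 1, 8 without high dose 3, 7 without control 2). Without high dose 1, 9.67% of all genes were higher and 13.4% lower in this way. These shares were 8.7% and 9.11% without high dose 3, and 14.5% and 7.3% without control 2. Npc2 ranged from -0.16 (without control 1 or high dose 3; -0.11 without high dose 1) to 0.35, Glb1 from -0.28 (without control 3; -0.16 without high dose 3) to 0.28, and Lamp2 from -0.18 (without high dose 3; -0.00567 without control 2) to 0.17. Scarb2 ranged from -0.085 (without control 2) to 0.20, Man2b1 from -0.026 (without control 3) to 0.41, Lamp1 from -0.45 to 0.19 (without control 3), and Mcoln1 from -0.16 to 0.14 (without high dose 3; 0.031 without control 3).

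On only the 5 libraries low in heart muscle genes, chosen after seeing the data, the lone control and high dose libraries are assumed to vary like the model group. This called 591 genes between high dose and model and 229 between high dose and control, and 0 lysosome genes. Lamp1, Mcoln1 and Arsb were then -0.59, -0.15 and -0.021 between model and control, Tfeb, Tfe3, Mcoln1 and Tcirg1 -0.21, -0.20, 0.12 and -0.61 between high dose and model, and Lamp2, Npc2, Hexa, Gm2a and Scarb2 -0.21, -0.012, -0.20, -0.014 and -0.085 between high dose and control. The cause of these changes was not tested. With the replicate number as a block (replicate block), 0 genes were called in each comparison and the medians were 0.40, -0.20 and 0.19, as without it. Deviations of same-numbered libraries correlated at -0.522 to 0.306 (9 pairs) and of others at -0.376 to 0.438 (18 pairs), so the numbers were not taken as pairs. FPKM without counts gives no precision per library, and with 3 libraries a group only differences well beyond the spread can pass.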

Other observations

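Genes that govern the release of TFEB and TFE3 from the lysosomal surface gave the following values. Flcn, the folliculin gene, stood at 33.4, 34.7 and 39.1 FPKM in control, at 35.7, 54.5 and 49.9 in model and at 127, 47.9 and 142 in high dose. High dose 1 and 3 were thus more than any other library, while high dose 2 lay within the model range. Its log2 difference was 1.04 ± 0.394 from model and 1.39 ± 0.394 from control, with limma adjusted p of 0.349 and 0.805. Rragd, a small GTPase of the nutrient-sensing complex, stood at 10.3, 4.48 and 3.40 FPKM in control, at 2.80, 1.20 and 1.19 in model and at 8.38, 5.91 and 4.35 in high dose. Its model libraries lay below all 6 others, at a log2 difference of 1.42 ± 0.406 between high dose and model (adjusted p = 0.259). Heart muscle markers summed to 24.9 FPKM in high dose 1, where Rragd was highest among the high dose libraries, and to 28490 in control 1, where it was highest of all. These markers summed to 42.5 to 83.8 FPKM in the model libraries, where Rragd was lowest. The part of tissue content in the Rragd values was not tested. Lamtor3, of the same complex, had a log2 difference of -0.36 ± 0.272 between high dose and control.

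Against control, high dose libraries had log2 differences of -0.89 ± 0.368 for Aga, the aspartylglucosaminidase gene, and 0.60 ± 0.366 for Pla2g15. The sorting genes Sort1 and Gnptab stood at -0.51 ± 0.240 and 0.70 ± 0.333. Wipi1 and Vps39 stood at 0.41 ± 0.371 and 0.35 ± 0.208, Atp6v1g1 and Atp6v0d2 at 0.48 ± 0.272 and 1.90 ± 1.16, and Gpnmb and Cd68 at 3.54 ± 1.11 and 1.88 ± 0.852.

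Hyal2, the other abundant hyaluronidase gene, stood at 18.4, 24.6 and 20.6 FPKM in control, at 19.9, 18.3 and 19.4 in model and at 9.55, 14.9 and 20.5 in high dose. High dose 1 and 2 were lower than the other 7 libraries and high dose 3 was not. Its log2 difference between high dose and model was -0.40, with a limma adjusted p of 0.507.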
